A study of Rattus norvegicus with 16 samples.

Results

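The Cyp2c genes encode a subfamily of cytochrome P450 enzymes, and 8 rat members were followed here: Cyp2c11, Cyp2c12, Cyp2c13, Cyp2c6v1, Cyp2c7, Cyp2c22, Cyp2c23 and Cyp2c24. They were chosen by name, through the probe annotation of the array and its transcript accessions. Of the 8 genes, 7 had a probe, with 9 probes in all, among 26913 probe names on the array. Cyp2c24 had none and is named only. Cyp2c7 had 3 probes, each other member 1.

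The samples were 16 arrays of 2 colours of liver RNA from adult male Sprague-Dawley rats of postnatal day 78 to 86, in 4 groups of 4 arrays. Group C came from dams given corn oil, and the pups stayed with their mothers. Group CC was the cross-fostered control, whose litters were adopted at birth. Dams of group M received methyl mercury, polychlorinated biphenyls and organochlorine pesticides together in corn oil, at 1.0 mg/kg/day in all, and group MM was its cross-fostered counterpart. Exposure ran up to postnatal day 20, so the adult livers were sampled long after it ended. Each group had 8 pups and each array a pool of 2 rats, so an array is a pool and not an animal, and no source here says whether the pools of a group came from separate litters. Tests therefore measure the spread between pools. In such bulk tissue, fewer cells of a type and less RNA per cell cannot be told apart. Liver RNA was labelled with Cy5 and a universal rat reference RNA from 14 cell lines with Cy3 on every array, without dye swaps. The M arrays carry a description that calls them a control, but their title and treatment place them with the exposed rats, and they were taken as exposed.

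Cytochrome P450 enzymes of the Cyp2c subfamily sit in the endoplasmic reticulum of hepatocytes, where they hydroxylate steroids, fatty acids, retinoids and drugs with electrons from the reductase Por. Several rat members are textbook examples of sex-biased liver genes: Cyp2c11 and Cyp2c13 are male-specific, Cyp2c12 is female-specific and Cyp2c7 is higher in females. The pattern is set by the pituitary secretion of growth hormone, pulsatile in males and near continuous in females, which acts through Stat5b and liver-enriched factors such as Onecut1 (HNF-6) and Hnf4a.

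The promoter windows of 4 members are shown because these are the sex-biased members under growth hormone control, and because they let a reader see how alike these genes are. They cover 250 bases before to 50 bases after the start that RefSeq gives on the rat assembly GRCr8, 5′ to 3′ on the strand of the gene. Cyp2c11 lies on the plus strand at chr1:246174966-246175265, Cyp2c13 on the minus strand at chr1:248787139-248787438, Cyp2c12 on the minus strand at chr1:248676985-248677284 and Cyp2c7 on the plus strand at chr1:247966144-247966443. Capitals mark matches on either strand to the hexamer TATAAA, the HNF-6 core ATTGAT, the C/EBP site TTGCNNAA and the forkhead site TGTTTAC.
Cyp2c11: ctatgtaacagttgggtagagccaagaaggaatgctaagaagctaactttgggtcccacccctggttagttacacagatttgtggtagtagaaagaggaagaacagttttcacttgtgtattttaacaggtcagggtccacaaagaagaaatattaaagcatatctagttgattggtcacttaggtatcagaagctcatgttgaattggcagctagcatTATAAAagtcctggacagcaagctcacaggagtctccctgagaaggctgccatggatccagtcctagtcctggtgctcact
Cyp2c13: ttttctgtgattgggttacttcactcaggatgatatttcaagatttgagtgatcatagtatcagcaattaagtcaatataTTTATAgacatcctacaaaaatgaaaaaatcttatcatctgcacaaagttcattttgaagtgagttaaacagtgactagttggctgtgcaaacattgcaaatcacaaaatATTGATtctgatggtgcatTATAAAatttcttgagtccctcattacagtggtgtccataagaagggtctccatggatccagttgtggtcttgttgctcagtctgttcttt
Cyp2c12: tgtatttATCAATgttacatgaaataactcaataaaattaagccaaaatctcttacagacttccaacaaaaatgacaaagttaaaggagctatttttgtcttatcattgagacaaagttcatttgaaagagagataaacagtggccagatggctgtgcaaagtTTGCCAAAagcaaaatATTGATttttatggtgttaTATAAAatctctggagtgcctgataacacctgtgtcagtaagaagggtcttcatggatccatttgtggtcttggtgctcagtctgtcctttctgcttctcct
Cyp2c7: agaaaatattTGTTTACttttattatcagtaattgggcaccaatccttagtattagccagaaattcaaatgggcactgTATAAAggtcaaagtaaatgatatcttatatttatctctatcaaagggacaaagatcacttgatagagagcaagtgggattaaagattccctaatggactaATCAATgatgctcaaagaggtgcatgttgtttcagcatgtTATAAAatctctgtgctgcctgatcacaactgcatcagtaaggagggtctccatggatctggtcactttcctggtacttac

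Windows were found for 7 of the 8 genes, Cyp2c24 included, and the TATA hexamer occurred in 6 of them, against 14.2% of all 33469 rat windows. In Cyp2c11 the match began at -31 from the start, in Cyp2c13 at -41, in Cyp2c12 at -52 and in Cyp2c7 at -31, and Cyp2c7 and Cyp2c13 each held another farther upstream. The HNF-6 core ATTGAT occurred in 3 of the 7 windows, those of Cyp2c12, Cyp2c13 and Cyp2c7, against 8.06% of all windows. It began at -71 in Cyp2c12 and at -60 in Cyp2c13, and on the other strand at -71 in Cyp2c7 and at -243 in Cyp2c12. The forkhead heptamer was in 3 windows (Cyp2c7, Cyp2c22 and Cyp2c23; 3.78% of all) and the C/EBP octamer in 2 (Cyp2c12 and Cyp2c22; 10.6%). The STAT5 motif TTCNNNGAA (8.87% of all windows) and the HNF-4 core CAAAGTCCA (0.391%) matched none of the 7, which says only that these letters are not in these windows. In pairwise alignment the windows of Cyp2c11 and Cyp2c24 were 65.8% identical, those of Cyp2c12 and Cyp2c13 65.5%, and those of Cyp2c12 and Cyp2c7 57.9%. These were the highest of the 21 pairs, and the rest ran from 41.4% (Cyp2c7 with Cyp2c23) to 54.1% (Cyp2c13 with Cyp2c7). The window of Cyp2c12 lies 4911 bases inside the outer end of its annotated gene, so another transcript of it starts farther upstream. A motif match is a description of letters, and no binding was measured. In RefSeq order along chromosome 1 the genes run Cyp2c11, Cyp2c24, Cyp2c6v1, Cyp2c7, Cyp2c12, Cyp2c13, Cyp2c22 and Cyp2c23, with other members and pseudogenes between them. Probe sequences were not used here, so which of these closely related transcripts a probe detects was not tested.

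The arrays were compared by their share of probes above background. Of the 30367 probes, between 35.0% and 41.9% exceeded background clearly for liver RNA, and between 61.6% and 66.1% for reference RNA. Of these, 11091 features were tested, those above background in the liver on at least 3 of 4 arrays of a group. All 8 hepatocyte markers examined were well above background on all 16 arrays. Slide 1 held all C and CC arrays and slide 2 all M and MM arrays, so exposure and slide cannot be told apart in M against C or MM against CC. For reference RNA the share of probes above background ran from 61.6% to 63.6% on slide 1. On slide 2 it ran from 64.5% to 66.1%, except for MM replicate 2 at 62.2%. Each slide had 2 rows, and each row held 2 arrays of each of its groups.

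All 7 members were well above background in the liver on all 16 arrays, and none was saturated. Expressed as liver signal over reference signal, Cyp2c11, the dominant male steroid hydroxylase, was 191-fold above the reference over the 16 arrays. The male-specific Cyp2c13 was 173-fold above it, and Cyp2c6v1, a constitutive drug-metabolizing member, 164-fold. Cyp2c7, which acts on steroids and retinoids, was 70.4-fold above the reference by its brightest probe and 113-fold and 178-fold by its other probes. Cyp2c23, an arachidonic acid epoxygenase best known from kidney, was 69.8-fold above it. For Cyp2c22, a retinoic acid hydroxylase, the reference was well above background on 2 of 16 arrays, 1 in C and 1 in M, so its ratio is mostly a bound too: at least 4.68-fold in CC and at least 3.05-fold in MM. Cyp2c12, the female-specific steroid sulfate hydroxylase, was not well above background in the reference on any array, so its ratio is a bound, at least 13.6-fold. By group the bound for Cyp2c12 was at least 19.3-fold in C, 14.6-fold in CC, 8.99-fold in M and 13.4-fold in MM. Bounds set the reference at the higher of its own signal and the lowest signal among probes well above background. These folds describe each probe against the reference and give no order of abundance among the genes. Their size depends on the processing used here. For Cyp2c6v1 the log2 ratio ran from 6.64 to 7.75 here and from 7.72 to 8.65 in the scanner software's own values. For Cyp2c11 the ranges were 7.33 to 7.89 and 7.63 to 8.18. For the 5 members with a measured reference, the mean log2 ratios sat at percentiles from 98.9 (Cyp2c23) to 99.7 (Cyp2c11) of all features tested.

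**Figure D1:**
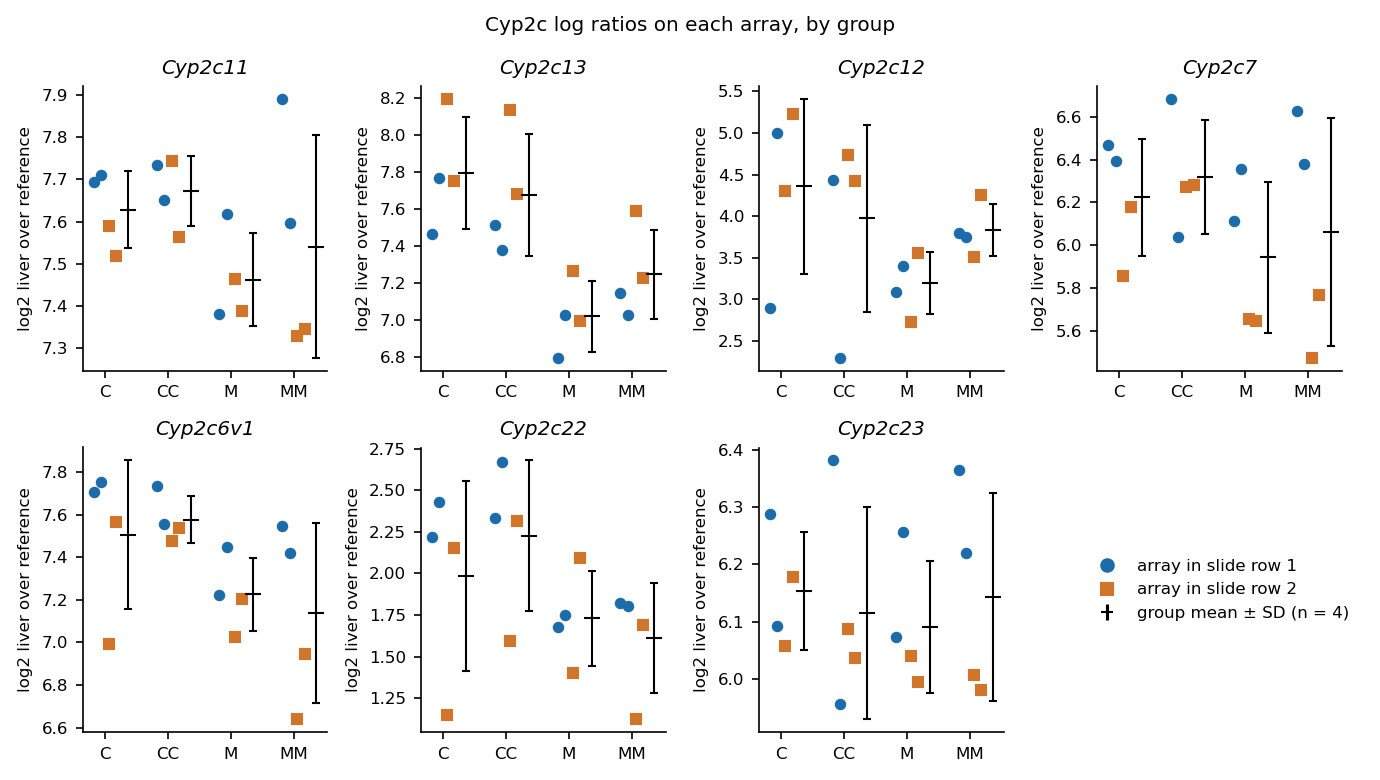
Log2 liver over reference ratio of the 7 Cyp2c genes on each of the 16 arrays, by group, with circles for arrays in slide row 1, squares for row 2, and the group mean with its SD (n = 4) to the right. The M arrays of Cyp2c13 all lie below the C arrays, Cyp2c12 spans 2.30 to 5.23, and in Cyp2c7 and Cyp2c6v1 most squares lie below the circles.

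The first comparison asked whether the maternal mixture went with a difference in adult liver when pups stayed with their own mothers, M against C. Cyp2c13 was the 1 of 7 members that passed the test, and it was lower in M. Its log2 ratios were 7.465, 7.770, 8.195 and 7.752 in C and 6.796, 7.027, 7.266 and 6.997 in M. Every M array lay below every C array. The difference was -0.77 ± 0.18 (SE) on the log2 scale, with an adjusted p of 0.0220 by limma over all 11091 features (4 arrays per group). Over all features, 4.17% were called in this comparison, 2.61% as lower, and in 6.61% all M arrays lay below all C arrays.

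Taken apart, the channels divided that difference unequally. In the liver channel Cyp2c13 read 14.43, 14.75, 14.82 and 14.56 in C and 13.93, 14.04, 14.87 and 14.82 in M, as log2 signal. These ranges overlapped: M replicates 5 and 6 were below all C arrays, and M replicates 7 and 8 were at or above the highest C array. The liver difference was -0.22 ± 0.22 (limma adjusted p = 0.900). In the reference channel the same probe read 8.23, 8.20, 7.95 and 8.05 in C against 8.41, 8.27, 8.79 and 8.98 in M, so every M array was above every C array although the reference RNA was the same product throughout, as in 19.3% of features. The reference difference was 0.50 ± 0.16 (limma adjusted p = 0.0196), and 48.5% of all features were called in the reference channel for M against C. In the liver channel 0.00902% were called, which is 1 feature. The fall of Cyp2c13 in the log ratio was therefore accompanied by a rise of its reference signal and by no called change of its liver signal, and the part of slide or labelling in it was not tested.

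Within slide row 1 the Cyp2c13 difference was -0.71 and within row 2 it was -0.84, and with the row as a block the limma adjusted p was 0.00147. With the scanner software's own log ratio it was -0.77 (limma adjusted p = 0.00582), and in the authors' deposited table -0.73 (limma adjusted p = 0.0374 from a fit to that table). The call was lost on leaving out C replicate 10 or 11 or M replicate 5, 6 or 8, with limma adjusted p between 0.0508 and 0.0708 and differences between -0.78 and -0.64.

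Cyp2c12 had the most negative difference of the 7 but did not pass. Its log2 ratios were 2.89, 5.00, 4.30 and 5.23 in C, and 3.09, 3.40, 2.72 and 3.56 in M. Of the C arrays, 3 lay above all M arrays and C replicate 9 lay among them. The difference was -1.16 ± 0.50 (limma adjusted p = 0.242), with a 95% interval from -2.23 to -0.09. In the liver channel it was -0.85 ± 0.39 (limma adjusted p = 0.594), and without C replicate 9 the log-ratio difference was -1.65 (limma adjusted p = 0.0668). Its reference signal was not above background on any of these arrays.

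The other members were each below 0 in M against C without passing. Cyp2c11 read 7.69, 7.71, 7.59 and 7.52 in C and 7.38, 7.62, 7.46 and 7.39 in M, a difference of -0.17 ± 0.11 (limma adjusted p = 0.520). Of its M arrays, 3 were below the lowest C array. The differences were -0.28 for Cyp2c6v1, -0.28 for Cyp2c7, -0.26 for Cyp2c22 and -0.06 for Cyp2c23, with adjusted p from 0.520 to 0.854 by limma. Single arrays moved these values by over 1.5 times. Cyp2c22 was -0.11 without C replicate 10, -0.15 without M replicate 7 and -0.54 without C replicate 11, and -0.69 in the scanner software's log ratio. Cyp2c6v1 was -0.45 without C replicate 11 and -0.44 in the scanner's log ratio, and Cyp2c7 was -0.42 without M replicate 6 and -0.18 without M replicate 7 or 8. Cyp2c23 ran from -0.12 without M replicate 6 to -0.018 without C replicate 9. In sum 7 of 7 members were below 0, with a median of -0.28 against -0.03 over all features, but in the liver channel only 5 of 7 were, with a median of -0.10. All hepatocyte markers examined were below 0 in the ratio too, as given below, so this direction was not particular to the family. Cyp2c6v1 was the member whose liver signal ran against its ratio, its liver difference being 0.06 and its reference difference 0.23. Cyp2c23 did the same by a smaller amount, at 0.03 and 0.07.

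Cyp2c7 depended on the probe. The brightest probe read 6.47, 6.40, 5.86 and 6.18 in C and 6.11, 6.36, 5.66 and 5.65 in M, and the groups overlapped. The second probe read 7.18, 7.25, 6.95 and 7.20 in C and 6.38, 6.62, 6.45 and 6.59 in M. All its M arrays were below all C arrays, as in 6.61% of features. Its difference was -0.63 ± 0.13 (limma adjusted p = 0.00959), in a comparison where 2.61% of features were called as lower. It stayed called on leaving out each array in turn, up to an adjusted p of 0.0349 by limma. In the liver channel that probe differed by -0.37 (limma adjusted p = 0.687). The third probe gave -0.36 (limma adjusted p = 0.731). Over the 16 arrays the group-centred log ratio of the brightest probe correlated with the second at r = 0.67 and with the third at r = 0.90, and with the scanner software's log ratio at 0.78 and 0.45. Probes share the RNA of each array, so these are descriptions.

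The second comparison set exposed against control rats after cross-fostering, MM against CC. None of the 7 members was called by limma, against 0.893% of all features, and 3 of 7 had an unadjusted p under 0.05, against 11.1% of features. These were Cyp2c13, Cyp2c6v1 and Cyp2c22. Cyp2c13 read 7.52, 7.38, 8.14 and 7.68 in CC and 7.15, 7.03, 7.59 and 7.23 in MM, a difference of -0.43 ± 0.18 (limma adjusted p = 0.358), and the groups overlapped. Its liver signal differed by 0.05 and its reference signal by 0.42 (limma adjusted p = 0.0491 for the reference, where 45.3% of features were called). The Cyp2c13 log ratio was thus lower in both exposed groups, and its reference signal higher in both. The C and M arrays are other pools than the CC and MM arrays, but both comparisons run across the same pair of slides.

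By the brightest probe of each gene, Cyp2c22 showed the most negative ratio difference between MM and CC. It read 2.33, 2.67, 1.59 and 2.32 in CC and 1.82, 1.81, 1.12 and 1.69 in MM. All CC arrays except replicate 3 lay above all MM arrays. The difference was -0.62 ± 0.27 (limma adjusted p = 0.396), and -0.28 ± 0.11 in the liver channel (limma adjusted p = 0.625). With same-numbered CC and MM arrays paired as a replicate block, the limma adjusted p for Cyp2c22 was 0.0307 and it was called, the 1 of 7 members, against 1.22% of all features in that fit. That pairing rests on array numbers and on correlations in these same data, and the paired arrays are different pools on different slides. With slide row as a block, limma called 0 of 7 members and 3.71% of all features. With the scanner software's log ratio the Cyp2c22 difference was -1.08 (limma adjusted p = 0.0714). The reference channel was not above background for Cyp2c22 on any CC or MM array, so its size is poorly held by the ratio.

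For Cyp2c6v1 the CC arrays read 7.73, 7.56, 7.47 and 7.54 and the MM arrays 7.54, 7.42, 6.64 and 6.94. Of the MM arrays, 3 lay below all CC arrays. The difference was -0.44 ± 0.19 (limma adjusted p = 0.394), and -0.30 in the liver channel. Without MM replicate 3 the Cyp2c6v1 difference was -0.27, and without CC replicate 3 that of Cyp2c13 was -0.28. The second Cyp2c7 probe, 7.20, 6.81, 7.24 and 7.34 in CC and 6.68, 6.68, 6.31 and 6.29 in MM, again separated the groups, as in 3.74% of features in that direction. Its difference was -0.65 ± 0.13 (limma adjusted p = 0.0200, where 0.893% of all features were called). In the liver channel it was -0.70 (limma adjusted p = 0.347). The call in the ratio was lost without CC replicate 1, 3 or 4 or MM replicate 3 or 4, with limma adjusted p up to 0.0801. The brightest Cyp2c7 probe differed by -0.26 and the third by -0.65 (limma adjusted p = 0.784 and 0.570). The brightest probe was -0.45 without MM replicate 1, and -0.14, -0.062 and -0.16 without CC replicate 1, MM replicate 3 and MM replicate 4. The third was -0.39 without MM replicate 3. Cyp2c11 differed by -0.13, Cyp2c12 by -0.14 and Cyp2c23 by 0.03, so 6 of 7 members were below 0 in the ratio, with a median of -0.26 against -0.02 over all features. In the liver channel 3 of 7 were.

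**Figure D2:**
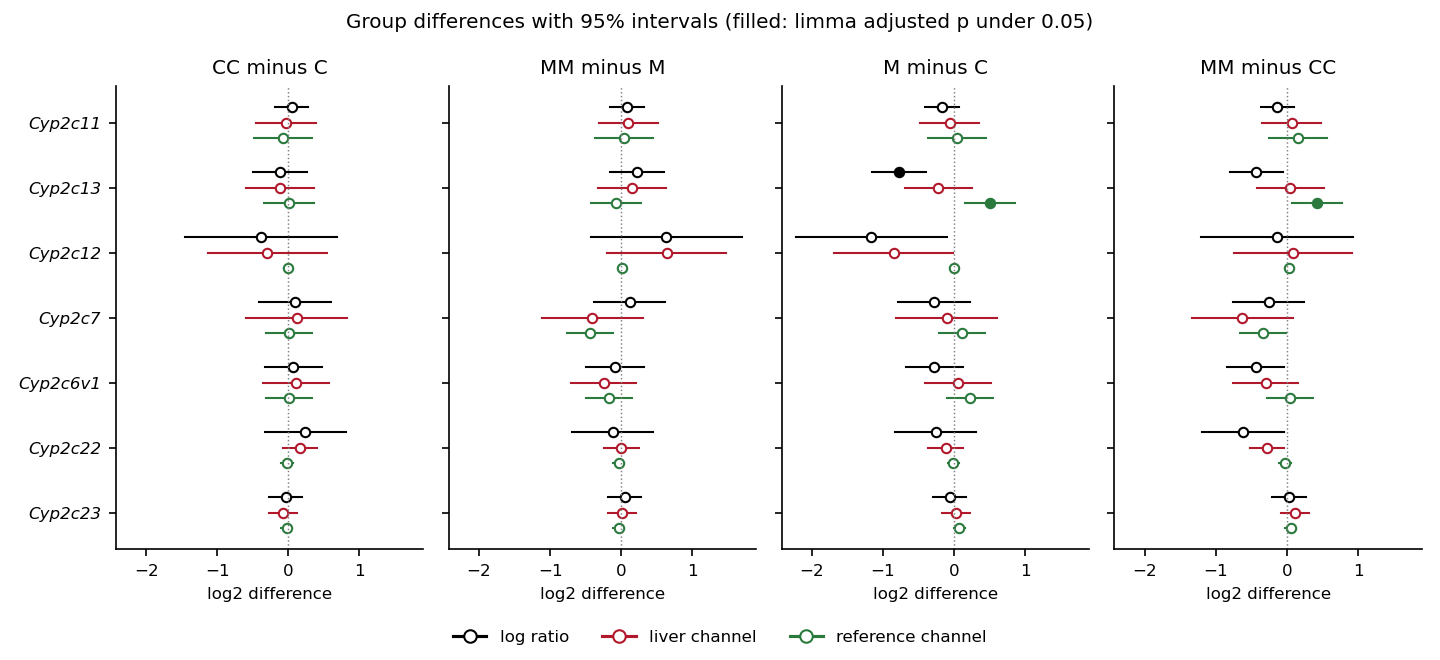
Log2 differences of the 7 Cyp2c genes in 4 group comparisons with 95% intervals, for the log ratio (black), the liver channel (red) and the reference channel (green). Points are filled where limma's adjusted p is under 0.05. Cyp2c13 is filled at -0.77 for the ratio and at 0.50 for the reference in M minus C, and no liver-channel point is filled.

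Cross-fostering itself could be compared within a slide. For CC against C and for MM against M, limma called 0 of 7 members and 0% of all features. At an unadjusted p under 0.05 there were 106 features (0.956%) and 197 features (1.78%), and 0 of 7 members in either. In CC against C the member differences ran from -0.38 ± 0.50 for Cyp2c12 to 0.24 ± 0.27 for Cyp2c22. Their 95% intervals were wide for those genes, -1.45 to 0.68 and -0.33 to 0.81, and narrow for Cyp2c11, -0.19 to 0.28, and Cyp2c23, -0.27 to 0.19. A missed threshold does not show that groups were alike, and for Cyp2c12 a fall of 1 log2 unit lies within the interval.

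In MM against M, Cyp2c12 read 3.80, 3.76, 3.51 and 4.26 in MM. All MM arrays but replicate 3 lay above the highest M array, 3.56. The difference was 0.64 ± 0.50 (limma adjusted p = 1.00), with an interval from -0.43 to 1.70. In the liver channel the M arrays read 7.96, 8.19, 7.83 and 8.14 and the MM arrays 8.58, 8.49, 8.76 and 8.85. There the groups did not overlap, as in 0.307% of all features in that direction, but the difference of 0.64 ± 0.39 had a limma adjusted p of 1.00. The signal of Cyp2c12 in C and CC spread so widely that the pooled error is large: C spanned 7.71 to 9.48 and CC 7.26 to 9.29 in the liver channel. The difference of the fostering effects between exposed and control litters, in which slide effects cancel, was 1.02 ± 0.71 for Cyp2c12 and between -0.36 and 0.34 for the other 6, and limma called 0 of 7 members and 0% of features (191 at an unadjusted p under 0.05, or 1.72%, none of them a member).

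Log ratios of arrays in the same group differed more in some members than in others. The pooled within-group SD of the log ratio was 0.81 for Cyp2c12, larger than in 99.8% of features, against a median of 0.18 over all features. It was 0.42 for Cyp2c22 (percentile 95.4), 0.37 for Cyp2c7 (92.0), 0.29 for Cyp2c6v1 (82.1) and 0.27 for Cyp2c13 (78.3). Cyp2c11, at 0.16, and Cyp2c23, at 0.15, lay at percentiles 35.5 and 33.3, below the median feature. In the scanner software's log ratio Cyp2c12 had an SD of 0.87 (percentile 98.7) and Cyp2c22 of 0.48 (90.5), while Cyp2c7, Cyp2c6v1 and Cyp2c13 came to 0.25, 0.23 and 0.23, at percentiles from 62.1 to 66.2. The wide ratio spread of Cyp2c12 and Cyp2c22 was thus present in both ratios, which share a reference signal mostly at background for these genes. That of Cyp2c7, Cyp2c6v1 and Cyp2c13 was nearer to the median feature in the scanner's values. In the liver channel alone the SD was 0.62 for Cyp2c12 (percentile 99.2) but 0.17 for Cyp2c22 (49.0), whose reference was mostly at background. It was 0.52 for Cyp2c7 (98.1), 0.34 for Cyp2c13 (89.5), 0.33 for Cyp2c6v1 (88.8), 0.30 for Cyp2c11 (85.0) and 0.13 for Cyp2c23 (28.5).

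**Figure D3:**
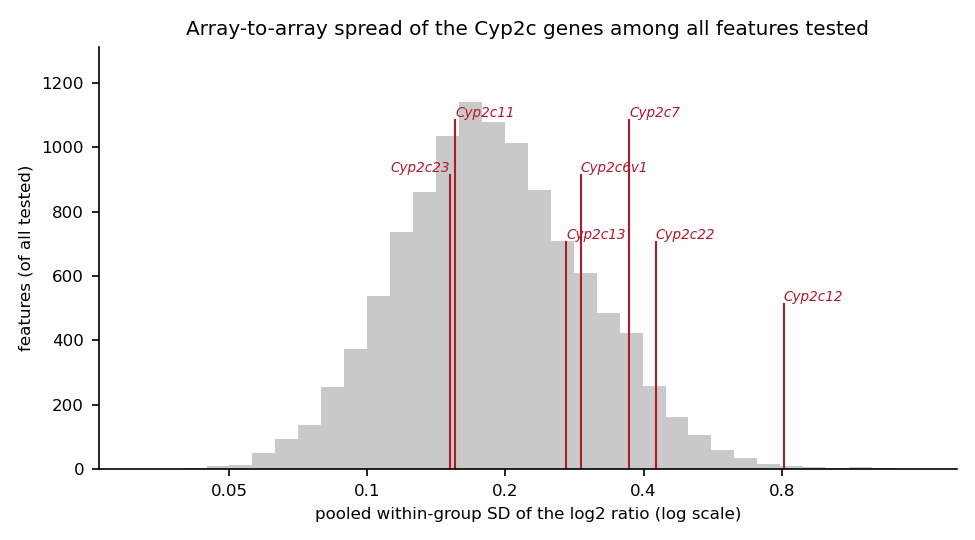
Histogram of the pooled within-group SD of the log2 ratio over all 11091 features, on a log axis, with lines at the 7 Cyp2c genes. Cyp2c12 lies at 0.81 in the far right tail, and Cyp2c11 and Cyp2c23 lie left of the peak near 0.16 and 0.15.

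The channels showed that a stable ratio did not mean stable signals. For Cyp2c11 the liver signal read 14.42, 15.01, 14.84 and 14.30 in C while its ratio stayed between 7.52 and 7.71. The pooled SD of its liver signal was 0.30 and that of its reference signal 0.30, the latter larger than in 99.5% of features, but 0.16 in the ratio. Over the 16 group-centred arrays the liver and reference signals of Cyp2c11 rose and fell together, with Pearson r = 0.88 (permutation p = 2e-05, adjusted 0.00014 over 7 members) and Spearman rho = 0.87 (permutation p = 3e-05, adjusted 0.00021). Without the 2 arrays with the most extreme reference signal r was 0.88, within slide 1 it was 0.94 and within slide 2 it was 0.85. The median r over all features was 0.29.

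Cyp2c13 had r = 0.66 and Cyp2c7 r = 0.65 between the channels (adjusted permutation p = 0.0104 for each), with rho of 0.76 and 0.61, at percentiles 87.6 and 86.5 of all features. Within the slides Cyp2c13 had 0.32 and 0.91 and Cyp2c7 0.83 and 0.46, so each was weaker on 1 slide. For Cyp2c22, whose reference signal was at background on all but 2 arrays, r was 0.64 (adjusted permutation p = 0.0104), so this is mostly a relation with background signal. Cyp2c6v1 had r = 0.57 (adjusted permutation p = 0.0228) but rho = 0.43 (adjusted 0.0972) and r = -0.15 within slide 2, so its relation did not hold on both slides. Cyp2c23, with 10 spots per array, went the other way at r = -0.66 (permutation p = 0.00724, adjusted 0.0104) and rho = -0.74. It stayed negative without the 2 most extreme arrays (-0.54) and within each slide (-0.47 and -0.86). For Cyp2c12, whose reference signal is background, r was -0.46 (adjusted permutation p = 0.0731). Both channels of a spot share its area and its place on the array.

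**Figure D4:**
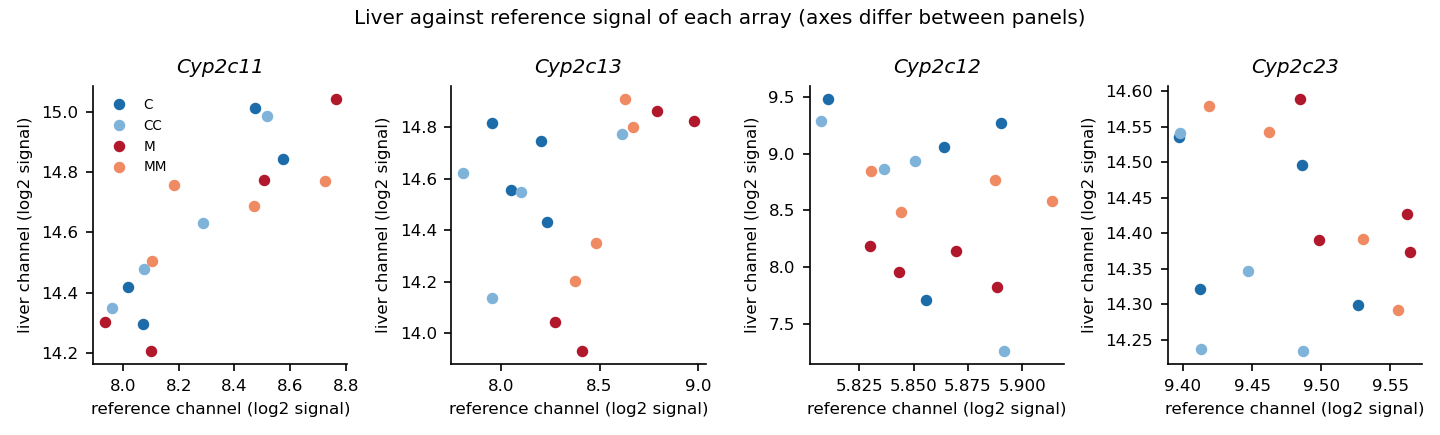
Liver channel against reference channel, as log2 signal on each of the 16 arrays, for Cyp2c11, Cyp2c13, Cyp2c12 and Cyp2c23, coloured by group. Cyp2c11 rises along a line (r = 0.88 after centring on group), the M and MM arrays of Cyp2c13 lie to the right of most C and CC arrays, and Cyp2c12 varies only in the liver channel.

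The row of the slide moved several members after loess. Row 2 minus row 1 was 0.34 for Cyp2c13 (limma adjusted p = 0.00723), -0.38 for Cyp2c6v1 (0.00489) and -0.49 for Cyp2c7 (0.00271), so 3 of 7 members were called against 42.4% of all features. In the liver channel 4 members were called, Cyp2c13 at 0.42, Cyp2c6v1 at -0.40, Cyp2c7 at -0.64 and Cyp2c22 at -0.20, against 45.2% of features, while the reference channel had 1.4% of features and 0 members. The direction followed where a spot lay. Across 11085 features the row difference correlated with the mean grid row of the spots, counted from 1 to 384 down the array, at r = -0.88, as a description. The spots of Cyp2c13 lay at grid rows 19 and 119, that of Cyp2c6v1 at 264 and those of the brightest Cyp2c7 probe at 294 and 365. In the scanner software's log ratio the correlation with grid row was -0.11, limma called 0 of 11091 features for the slide row, and the row differences were -0.03 for Cyp2c13, -0.07 for Cyp2c6v1 and -0.06 for Cyp2c7. A limma fit to the authors' deposited table called 43.3% of features and 5 members for the slide row. Every row held 2 arrays of each of its groups, so the row is balanced in all group comparisons above.

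This bears directly on how the members varied together. Of the 21 pairs, 9 were called by permutation of the group-centred log ratios after loess (adjusted over 21 pairs) and 9 in the scanner software's log ratio. How often pairs of other features would be called was not tested, so these counts cannot be read as particular to the family. Only 6 pairs were called in both settings, 5 of them with the same sign, and 10 of 21 changed sign between the settings. The permutations moved arrays without regard to slide row, so p values after loess can also reflect the row difference. Cyp2c7 and Cyp2c23 varied together in both settings. After loess they had Pearson r = 0.87 (permutation p = 1e-05, the smallest 100000 permutations can give, adjusted 0.00021) and rho = 0.86 (p = 3e-05, adjusted 0.00031). In the scanner's values r was 0.73 (permutation p = 0.00136, adjusted 0.0116) and rho 0.74, with 0.64 without the 2 most extreme arrays, 0.68 within slide 1 and 0.81 within slide 2.

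Cyp2c6v1 and Cyp2c7 had r = 0.90 after loess (permutation p = 2e-05, adjusted 0.00021) and r = 0.58 in the scanner's values (permutation p = 0.0196, adjusted 0.0458), where rho was 0.50 (adjusted 0.110). The remaining pairs called with the same sign in both were Cyp2c11 with Cyp2c6v1 (r = 0.72 and 0.62), with Cyp2c7 (0.79 and 0.62) and with Cyp2c23 (0.73 and 0.72). Centred on group and slide row, their loess values were 0.13, 0.43 and 0.51. In the liver channel alone their r was negative, at -0.14, -0.61 and -0.51. Cyp2c7 with Cyp2c23 and Cyp2c6v1 with Cyp2c7 had 0.86 and 0.74 so centred, and 0.75 and 0.72 in the liver channel. Cyp2c22 changed sign in 5 of its 6 pairs, among them Cyp2c6v1 (0.74 after loess and -0.14 in the scanner's values) and Cyp2c7 (0.43 and -0.27). The male-specific Cyp2c13 did so in 4 of 6. With Cyp2c6v1 it had r = -0.70 after loess (permutation p = 0.00302, adjusted 0.00705) and r = 0.64 in the scanner's values (permutation p = 0.00766, adjusted 0.0308), where it was 0.41 without the 2 most extreme arrays. With Cyp2c11, the other male-specific member, it had r = -0.20 after loess and 0.78 in the scanner's values (permutation p = 0.00042, adjusted 0.00882). The latter had a rho of 0.82, was 0.74 without the 2 most extreme arrays and 0.90 and 0.82 within the slides. With the log ratios centred on group and slide row, the Cyp2c11 and Cyp2c13 correlation after loess was 0.60. Cyp2c13 and Cyp2c22 were negative in both, at -0.85 (adjusted permutation p = 0.00063) and -0.47 (adjusted 0.110). No pair with Cyp2c12 was called in either, with r between -0.13 and 0.38 after loess and between 0.10 and 0.48 in the scanner's values.

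**Figure D5:**
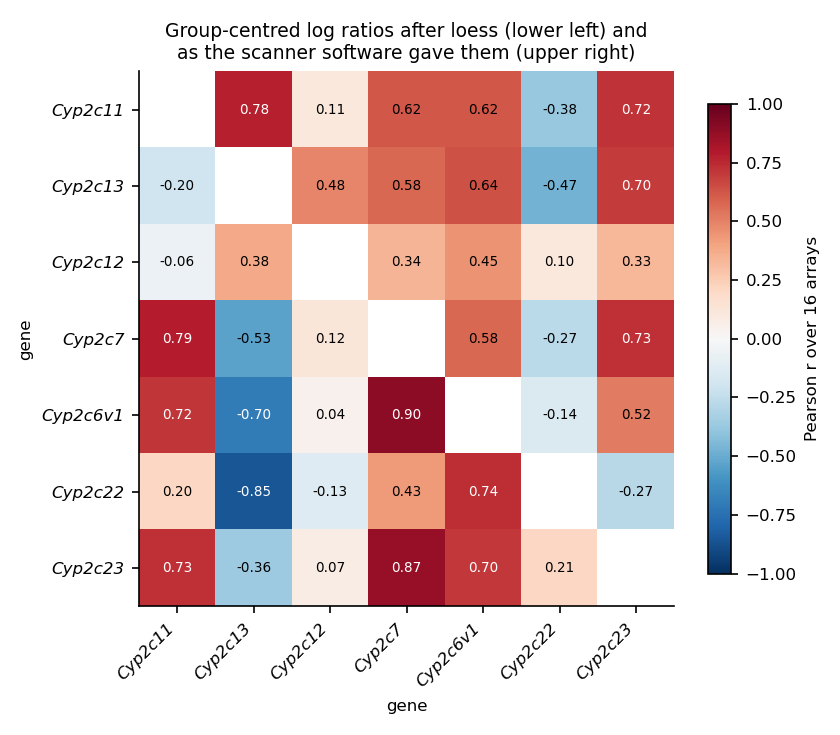
Pearson r between the group-centred log2 ratios of each pair of Cyp2c genes over 16 arrays, after loess in the lower left and as the scanner software gave the log ratios in the upper right. Cyp2c11 with Cyp2c13 is -0.20 in the lower left and 0.78 in the upper right, and Cyp2c7 with Cyp2c23 is positive in both.

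The features most like each member, by the highest r of group-centred log ratios over 16 arrays, carried the same dependence. After loess the closest to Cyp2c13 were Cfb (complement factor B, r = 0.98), Obp3 (an odorant-binding protein of the lipocalin family, 0.97) and an unnamed transcript (0.94), whose spots lay at mean grid rows 60, 39 and 12 against 69 for Cyp2c13. In the scanner's values those of Cfb and Obp3 were 0.83 and 0.59, and the closest feature was the protease inhibitor Mug1 at 0.95, which had 0.65 after loess. For Cyp2c11 the closest were Fetub (0.92, and 0.90 in the scanner's values), Orm1 (0.91 and 0.90) and Pigr (0.90 and 0.66), the first and second of which are secreted liver proteins. In the scanner's values the closest was Itih1 at 0.95, against 0.28 after loess.

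For Cyp2c7 the closest after loess were Hpx (0.96), which binds haem in plasma, C17h7orf25 (0.96) and Apom (0.96), with 0.55, 0.54 and 0.66 in the scanner's values. Cyp2c6v1 was closest to an unnamed transcript (0.96), Ulk2 (0.96) and Sult1c3 (0.96), which had 0.29, 0.58 and 0.65 in the scanner's values. Cyp2c22 was closest to Dhtkd1 (0.96), Amt (0.95) and Atxn7l3b (0.94), which had 0.42, 0.45 and 0.70. Cyp2c23 was closest to Gstz1 (0.90, then 0.71) and 2 unnamed transcripts. Cyp2c12 reached only 0.81 with an unnamed transcript, 0.81 with Dap and 0.79 with Vegfc after loess, and 0.94 with Eif4e3 in the scanner's values. Likeness here was over 16 arrays that share slides and positions and carries no p.

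Genes around the family were read from lists as background to the members. Of 16 other CYP2 genes tested, none was called by limma in any comparison, and 5 of 16 were above 0 in M against C, with a median of -0.21 against -0.03 over all features. Cyp2b3 had -0.46 (limma adjusted p = 0.0672) and Cyp2e1, the ethanol-inducible member, -0.34 (0.115). Among 13 electron transfer and haem genes, Por, which feeds electrons to all microsomal P450 enzymes, was higher in M than in C at 0.94 ± 0.25 (limma adjusted p = 0.0431). It was the 1 of 13 called, against 4.17% of all features. Its liver signal differed by 0.59 (limma adjusted p = 0.583) and its reference signal by -0.36. In MM against CC Por was at 0.71 ± 0.25 (limma adjusted p = 0.243).

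Among 18 tested regulators of these genes and of growth hormone signalling, none was called in any comparison, with medians of -0.07 in M against C and -0.11 in MM against CC. Foxa3 had 0.50 (limma adjusted p = 0.290), Ghr, the growth hormone receptor, -0.23 and its feedback inhibitor Socs2 -0.51 in M against C, and Hnf4a had -0.36 in MM against CC (0.347). Other male-biased liver genes were 0 of 8 above 0 in M against C, with a median of -0.31, and 0 of 8 in MM against CC, with a median of -0.25, and none was called. All 8 hepatocyte markers given below were also below 0 in M against C, so this direction was not particular to male-biased genes. Mup5 had -0.45 (limma adjusted p = 0.0715) and Obp3 -0.69 (0.105) in M against C. For Obp3 the liver signal differed by -0.13 and the reference signal by 0.29. Female-biased genes were mostly below 0 too. Of 7 tested, 2 were above 0 in M against C and 0 in MM against CC, with medians of -0.12 and -0.45, and none was called.

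None of 15 arachidonic acid and epoxide enzymes and none of 13 retinoid genes was called in any comparison. In M against C their medians were -0.04 and -0.14, with Cyp4a3 at -0.28 and Rbp4 at -0.39 (limma adjusted p = 0.307 and 0.0779). Pericentral hepatocyte genes, where P450 enzymes are concentrated, had a median of -0.15 over 6 tested and periportal genes 0.07 over 10, with none called in either. The cell type markers called in M against C were Tf, Hbb-b1 and Eng, in a comparison where 4.17% of all features were called. All 8 hepatocyte markers were below 0 in M against C, with a median of -0.23 and 1 called, Tf at -0.58 (limma adjusted p = 0.0479). All 4 erythroid markers were below 0, with a median of -0.65 and Hbb-b1 called at -0.89 (0.0490). Eng was called at 0.66 (0.0235) among 4 endothelial markers with a median of 0.15. The medians of the 7 Kupffer cell, 4 cholangiocyte and 5 stellate cell markers were -0.15, -0.02 and -0.04, with none called. No marker was called in MM against CC, and the part of these shifts in the Cyp2c values was not tested.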

How the data were processed

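Liver RNA and a reference RNA were measured on 16 Agilent arrays of 62976 spots (4 pools per group). The authors scanned them with Feature Extraction 11.0.1.1 and deposited spot intensity values for each channel, with log10 ratios of processed signals, per the file headers, which name rn4. The authors also deposited a value table of log2 ratios, with processing not given in the sources used here. Its columns correlated with the unsubtracted loess log2 ratios at 0.987 to 0.995, with a slope from 0.975 to 0.991 and medians from -0.04 to -0.03, so it runs liver over reference.

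Here median intensities were background-corrected with normexp (offset 50) and loess-normalized within arrays in limma 3.58.1 (R 4.3.3), without outlier-marked spots (732 to 1138 per array) and with control spots at weight 0. Spots of a probe were averaged, and the brightest liver probe stood for a gene. Channels alone were quantile-normalized between arrays. Features were tested with lmFit and eBayes over 4 groups with 12 residual degrees of freedom and Benjamini-Hochberg adjustment at 0.05, and the script was tested on simulated data. Calls rest on 4 pools a group, and the number of arrays limits their precision. No 2 arrays had identical liver signals. RefSeq symbols named 18005 of 30367 probes, and symbols of the members matched 7 of 8 promoter windows (GRCr8, biopython 1.88). Correlations used 100000 permutations, which moved the group-centred arrays freely across slides and slide rows.

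Same-numbered CC and MM arrays deviated together (r = 0.55, 0.16, 0.58 and 0.19; number 2 was not most like its own number), and same-numbered arrays lie in the same slide row. By a rule that asks for all correlations over 0.1, they were taken as paired for the alternative fit. Alternatives were no background subtraction, the scanner software's log ratio, the value table, no filter on dim probes, outlier spots kept, slide row or replicate number as a block, other probes, 75th percentile scaling of the liver channel, and leaving out each array. Correlations, spread and slide row in the scanner's log ratio were added after seeing the data. Genes are named by these rules: all members, up to 3 genes of each list with the lowest p per comparison, and the 3 features most like each member. The closest features in the scanner's log ratio were named after their values were seen. Lists and members were chosen with earlier results of these data known.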

Additional observations from a re-analysis of the deposited data

Results flagged for a closer look

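Of 56 groups of 4 arrays examined across the 7 members, 1 held a lone array, and chance alone marks about 1 in 20 such groups. In Cyp2c12, the female-specific steroid hydroxylase, CC replicate 2 had a log2 ratio of 2.30, while the nearest CC array was at 4.42 and the highest at 4.74. The gap was 0.872 of the whole range, above Dixon's critical value for 4 samples. Without this array Cyp2c12 was 0.18 in CC against C in place of -0.38.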

How the results depend on the processing

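Of 969 values recomputed under alternatives, 900 kept their direction and their side of the threshold, 46 reversed, 7 lost a call and 16 gained one. In M against C, 2 members were called with the probe of rank 2 by liver signal, in a fit that called 472 features in all. In MM against CC 1 member was called with that probe, in a fit that called 110 features. There the replicate block called 1 member (Cyp2c22, limma adjusted p = 0.0307) and 1.22% of all features, and it changed no other member's call. Slide row called 0 members and 0% of features in the scanner software's log ratio, and 5 members and 43.3% of features in the authors' table.

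Reversals in the scanner's log ratio were Cyp2c6v1 at 0.19 and Cyp2c22 at 0.26 in MM against M, Cyp2c6v1 at 0.15 in the interaction, Cyp2c12 at 0.15 in MM against CC, and Cyp2c13 at -0.026 and Cyp2c22 at 0.34 for slide row. In the authors' table they were Cyp2c6v1 at 0.0091 in MM against M, Cyp2c7 at -0.10 in the interaction and Cyp2c12 at 0.0036 in MM against CC. With the Cyp2c7 probes of rank 2 and 3, Cyp2c7 was -0.019 and -0.36 in MM against M and -0.021 and -0.29 in the interaction, and with the latter -0.065 in CC against C. In the liver channel, Cyp2c23 was -0.054 in MM against M with 75th percentile scaling and Cyp2c11 was 0.092 for slide row. The cause was not tested.

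Leaving out each array gave 0 to 1 members in M against C and 3 to 5 for slide row. With all arrays the slide row called 42.4% of all features. The lowest and highest log2 differences that crossed 0 were, in CC against C, Cyp2c12 -0.87 and 0.18, Cyp2c13 -0.27 and 0.016, Cyp2c22 -0.039 and 0.45, Cyp2c23 -0.13 and 0.014, Cyp2c6v1 -0.10 and 0.15, and Cyp2c7 -0.027 and 0.19. In MM against M they were Cyp2c11 -0.039 and 0.15, Cyp2c22 -0.23 and 0.043, Cyp2c23 -0.022 and 0.11, Cyp2c6v1 -0.22 and 0.078, and Cyp2c7 -0.070 and 0.31. In the interaction they were Cyp2c11 -0.084 and 0.10, Cyp2c6v1 -0.29 and 0.012, and Cyp2c7 -0.17 and 0.22. In MM against CC they were Cyp2c12 -0.70 and 0.11 and Cyp2c23 -0.046 and 0.12.

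Over all features, M against C called 462, and 1367 in the scanner's log ratio, 1171 with slide row as a block and 214 to 534 on leaving out an array. MM against CC called 99, and 491, 412 and 37 to 108 in the same order. For CC against C the scanner's log ratio called 1. Signals near background limit Cyp2c12 and Cyp2c22, whose reference channel was above background on 0 and 2 of 16 arrays.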
